A study of Mus musculus with 30 samples.

Results

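Heat shock chaperones were followed as a set of 10 genes among 18193 genes with an annotated probe set in mouse liver. The genes were Hspb1, Hspa1b, Hspa8, Hsp90aa1, Hsph1, Dnajb1, Dnaja1, Hspd1, Hspe1 and Bag3, chosen by name with earlier results of these data known. Each gene was read from its brightest probe set among those annotated to that gene alone, and all 10 were among the 12795 genes bright enough to be tested. Livers of adult male mice of C57BL/6J background were measured on 30 arrays, 3 in each of 10 groups. The groups covered 1,4-dichlorobenzene (DCB, an aromatic solvent, 600 mg/kg), cyproterone acetate (CPA, a steroidal antiandrogen, 160 mg/kg) and corn oil, given daily by gavage. Wild type mice (WT), mice carrying human in place of mouse CAR and PXR (hCAR/hPXR) and mice lacking both receptors (CARko/PXRko) received each of them, and PXRko mice received corn oil alone. CAR and PXR sense drugs and other foreign compounds in hepatocytes and induce enzymes that clear them. Corn oil and DCB arrays carry the label of 3 days. CPA arrays carry 3 days in CARko/PXRko mice and 6 days in the other genotypes, whereas the protocol gives 3 days for both compounds, so a CPA effect by the labels sets 6 days against 3 days in the latter. The design names 5 mice per group, and the labels do not say that each array is a separate mouse, so p-values measure the spread between these arrays.

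Chaperones bind unfolded proteins and help them reach or regain their shape. Small heat shock proteins hold unfolded proteins without using ATP, HSP70 and its J-domain partners fold them in cycles of ATP use, HSP90 finishes the folding of client proteins such as steroid receptors, and HSP60 with HSP10 folds proteins inside mitochondria. When unfolded proteins accumulate, heat shock factors bind repeated short units in the promoters of these genes and raise their transcription. The response is known from heat, oxidants and chemicals that damage proteins.

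The units bound by heat shock factors are shown first, because several members carry them close to the start of transcription. Promoter windows from 250 bases before to 50 bases after an annotated start (RefSeq, GRCm38.p6) were held for 8 of the 10 members. Hsp90aa1 and Hspa8 had no entry. Windows were searched on both strands for a pair of units in either orientation, GAANNTTC or TTCNNGAA, both of which read the same on the other strand, and for 3 units in a row, GAANNTTCNNGAA or TTCNNGAANNTTC, which contain the pairs. A pair was found in a window of 7 of the 8 members, against 17.0% of all 27025 genes with a window. A row of 3 units was found for Hsph1, Hspd1 and Hspe1, against 0.662% of all genes. Hspd1 and Hspe1 share a single stretch of DNA, which is counted for each of them in both comparisons. A match describes the letters of the window and is not evidence of binding.

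The stretch before the start of Hspb1 is printed because Hspb1 changed most, with its 2 pairs in capitals. It lies at chr5:135887669-135887918 on the plus strand, directly upstream of the annotated gene, and the pairs begin 117 and 97 bases before the start.
Hspb1: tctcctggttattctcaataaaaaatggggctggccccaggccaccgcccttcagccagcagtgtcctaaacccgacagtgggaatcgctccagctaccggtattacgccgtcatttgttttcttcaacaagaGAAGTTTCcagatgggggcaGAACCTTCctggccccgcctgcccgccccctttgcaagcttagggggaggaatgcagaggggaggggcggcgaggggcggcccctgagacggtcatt

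For Hspa1b and Dnaja1, which carry the same kind of pair and did not pass the test with DCB, 60 bases around the pair are shown with the pair in capitals. Hspa1b is read at chr17:34959309-34959368 on the minus strand and Dnaja1 at chr4:40722318-40722377 on the plus strand, both upstream of the gene.
Hspa1b: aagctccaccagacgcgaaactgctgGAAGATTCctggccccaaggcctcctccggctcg
Dnaja1: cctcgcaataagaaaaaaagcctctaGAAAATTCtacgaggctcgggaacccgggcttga

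Hspd1 and Hspe1 point away from each other on chromosome 1, and the run of units in capitals is the same stretch of DNA, chr1:55088053-55088082, read on the plus strand for Hspe1 and on the minus strand for Hspd1. The run spans 89 to 72 bases before the start of Hspe1. It lies inside the annotated span of Hspd1, which has a further start upstream whose window held no match.
Hspe1: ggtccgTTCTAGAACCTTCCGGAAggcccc
Hspd1: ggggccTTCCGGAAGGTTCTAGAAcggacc

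**Figure D1:**
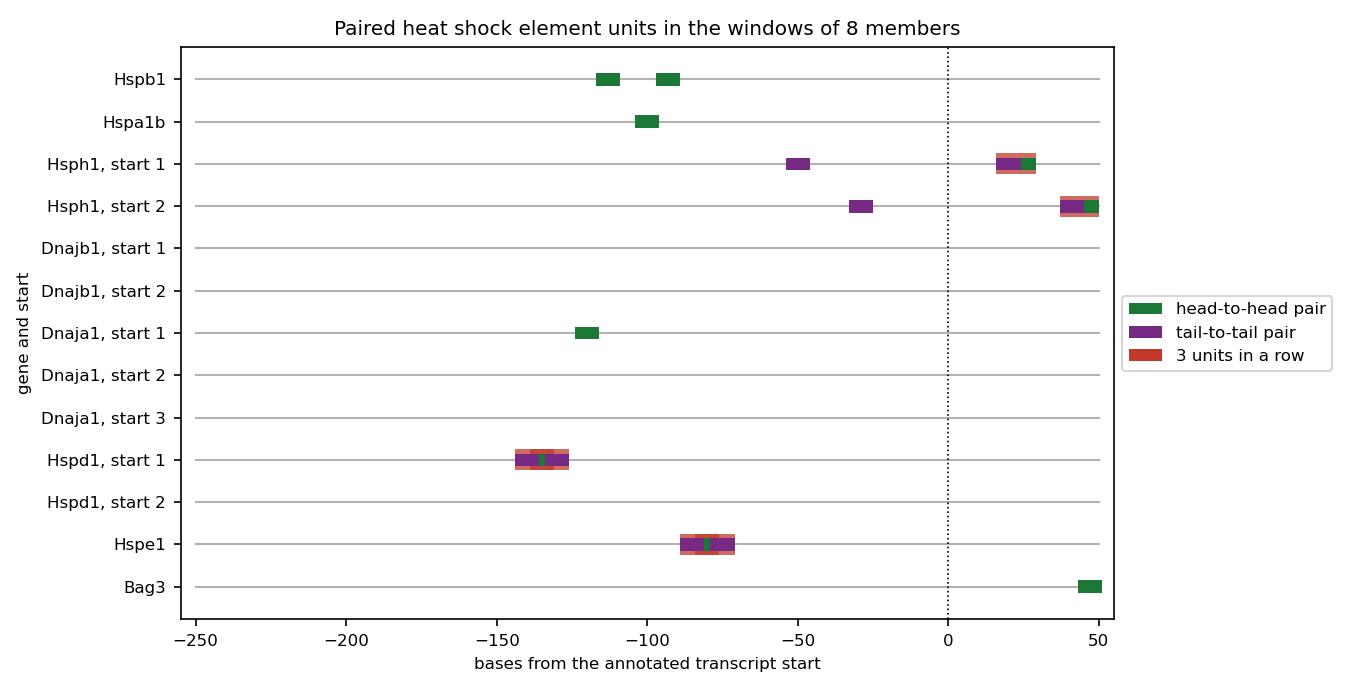
Positions of paired units (green and purple) and of 3 units in a row (red) along the promoter windows of 8 members, drawn by distance in bases from each annotated start, with a line for each start. Matches lie 117 and 97 bases before the start of Hspb1, the match of Bag3 and the row of Hsph1 lie after the start, and Dnajb1 has none.

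The median of 8 hepatocyte markers relative to wild type corn oil lay between -0.133 and 0.0804 on every array, lowest in the DCB hCAR/hPXR group. Single markers ranged more widely, Hpx from 13.97 to 14.68 and Alb, which encodes albumin, from 15.09 to 15.304 on the log2 scale. On 4 arrays, the median of 17 skeletal muscle markers exceeded that of wild type controls by 1.14 to 6.27 log2 units. They were CO CARko/PXRko replicate 2, CO PXRko replicate 3, and DCB CARko/PXRko replicates 2 and 3. The last of these also carried adrenal cortex and brown fat transcripts, and DCB CARko/PXRko replicate 2 carried squamous epithelium transcripts. Leaving these arrays out keeps 1 DCB array and 2 controls in CARko/PXRko mice, so that the lone DCB array is assumed to vary like the other groups. For the 10 members, average changes that were called and the CARko/PXRko changes of single members given below have their values without these arrays beside them. Medians and counts over members do not. The mouse receptor genes followed the genotype labels: Nr1i3 (CAR) reached at most 6.86 in hCAR/hPXR and CARko/PXRko mice and was at least 9.32 in wild type and PXRko mice.

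With DCB, chaperone genes of several classes rose, and others did not pass the test. Averaged over the 3 genotypes, a contrast added after the data had been seen, Hspb1, Hsp90aa1, Hspe1, Bag3 and Hspd1 rose, which is 5 of 10 members against 6.54% of all genes tested, and 0 of 10 fell, against 6.89%. Because the members were also chosen with earlier results of these data known, these shares describe the set and are not a test of it. The median change of the 10 was 0.437 log2 units, against -0.0115 over all genes, and all 10 estimates were above 0. A shared sign was not particular to DCB. All 10 estimates were also above 0 for hCAR/hPXR against wild type under corn oil, with a median of 0.278. Changes here are log2 differences of group means from limma with the standard error, and adjusted p-values are Benjamini-Hochberg over all 12795 genes.

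Hspb1 encodes the small heat shock protein also called HSP25 in mouse. In wild type mice its levels were 9.23, 9.20 and 9.46 under corn oil and 13.18, 12.25 and 11.13 under DCB. The hCAR/hPXR levels were 9.81, 9.95 and 9.75 under corn oil and 12.59, 12.40 and 10.06 under DCB. In CARko/PXRko mice they were 10.33, 11.15 and 10.05 under corn oil and 11.68, 12.72 and 12.30 under DCB. Every DCB array lay above every corn oil array of its own genotype, a separation in all 3 genotypes that 1.5% of genes tested had. DCB hCAR/hPXR replicate 3 sat only just above its controls.

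Averaged over the genotypes Hspb1 rose by 2.15 ± 0.278 log2 units, 4.45-fold, with an adjusted p of 1.57e-05 (limma). Within genotypes the changes were 2.89 ± 0.482 in wild type mice (adjusted p = 0.00212), 1.85 ± 0.482 in hCAR/hPXR mice (adjusted p = 0.0202) and 1.72 ± 0.482 in CARko/PXRko mice (adjusted p = 0.201, limma), where it was 1.49 ± 0.722 without the arrays with muscle transcripts (adjusted p = 0.86, limma). The difference of the change from that in wild type mice was -1.04 in hCAR/hPXR mice, with a 95% interval from -2.45 to 0.366. In CARko/PXRko mice it was -1.17, from -2.57 to 0.241, and -1.4 without the arrays with muscle transcripts. Both intervals hold 0 and also hold large differences, so the data show neither a dependence on the mouse receptors nor its absence. These errors use a single spread per gene fitted over all 10 groups, while the DCB hCAR/hPXR arrays alone had an SD of 1.41. Errors and intervals for DCB effects may thus be too narrow. With only the groups compared, 0 members were called with DCB in hCAR/hPXR mice. Over the alternatives, this comparison called from 82 to 2993 of all genes tested, against 978 with all groups fitted. Without the 4 arrays with muscle transcripts the average change was 2.08 (adjusted p = 0.000432, limma). The hCAR/hPXR call was lost on leaving out any array but DCB replicate 3, with adjusted p up to 0.0855 (limma), and in wild type mice it held without any single array, at most 0.0368.

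**Figure D2:**
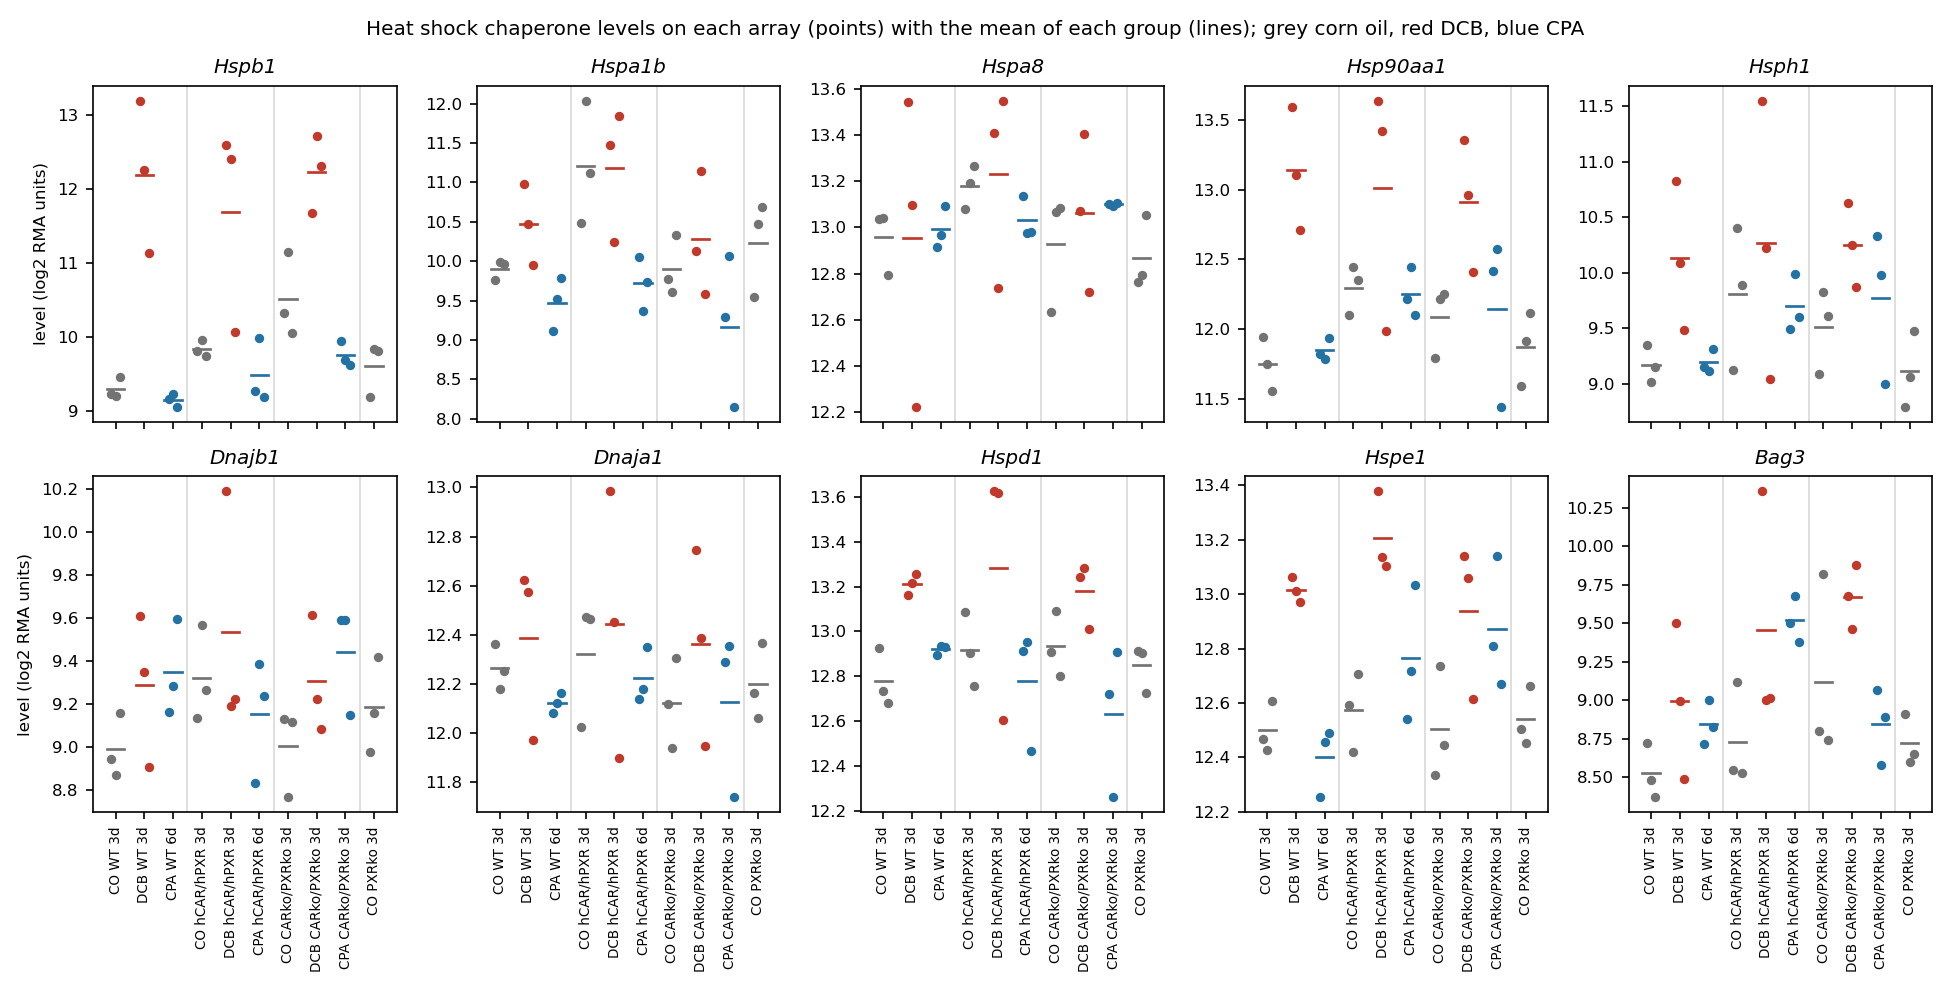
Level of each chaperone gene on every array (log2 RMA units, a separate axis range for each gene) by group, with points for arrays and short lines for group means; grey is corn oil, red DCB and blue CPA. Hspb1 shows the widest gap, from corn oil arrays near 9.2 to 9.5 to DCB arrays at 11.1 to 13.2 in wild type mice, while Hspa8 overlaps in the 3 treatments.

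Hsp90aa1, the stress-inducible cytosolic HSP90, followed. Its wild type levels were 11.94, 11.75 and 11.56 under corn oil and 13.60, 13.10 and 12.71 under DCB. The hCAR/hPXR controls at 12.10, 12.44 and 12.35 stood against 13.63, 13.42 and 11.99. The CARko/PXRko levels were 11.80, 12.21 and 12.26 against 13.35, 12.96 and 12.41. The groups did not overlap in wild type and CARko/PXRko mice, and did in hCAR/hPXR mice through the same replicate 3. The average rise was 0.97 ± 0.190, 1.96-fold (adjusted p = 0.00123), and the wild type rise was 1.39 ± 0.329 (adjusted p = 0.0444, limma). The wild type call was lost on leaving out any array but DCB replicate 3, with adjusted p up to 0.338 (limma). The hCAR/hPXR change was 0.72 ± 0.329 (adjusted p = 0.192) and in CARko/PXRko mice 0.82 ± 0.329 (adjusted p = 0.508, limma). Without the arrays with muscle transcripts the CARko/PXRko change was 1.33 ± 0.494 (adjusted p = 0.81, limma) and the average 1.14 (adjusted p = 0.00277, limma). Of 4 dimmer probe sets of Hsp90aa1, 2 were tested and gave larger wild type changes, 1.84 and 1.86, and passed in hCAR/hPXR mice too, at 1.41 and 1.44 (adjusted p = 0.0316 and 0.0249 over all probe sets, limma). The other two were too dim to be tested and changed by 0.11 and 0.381 in wild type mice.

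The mitochondrial pair moved less and with a smaller spread. Hspe1, the HSP10 lid of the chaperonin, read 12.47, 12.43 and 12.61 under corn oil and 13.06, 13.01 and 12.97 under DCB in wild type mice. It read 12.59, 12.42 and 12.71 against 13.38, 13.14 and 13.10 in hCAR/hPXR mice, and 12.34, 12.73 and 12.44 against 13.14, 13.06 and 12.62 in CARko/PXRko mice. The groups were apart except in CARko/PXRko mice, where DCB replicate 3 fell among the controls. Hspe1 rose by 0.53 ± 0.0877 on average, 1.44-fold (adjusted p = 0.000287, limma), and by 0.63 ± 0.152 in hCAR/hPXR mice (adjusted p = 0.0126, limma), a call lost without CO hCAR/hPXR replicate 2 (0.56, adjusted p = 0.0809). Its change was 0.51 ± 0.152 in wild type mice (adjusted p = 0.145) and 0.43 ± 0.152 in CARko/PXRko mice (adjusted p = 0.4, limma). Without the arrays with muscle transcripts the CARko/PXRko change was 0.75 ± 0.206 (adjusted p = 0.358) and the average 0.63 (adjusted p = 0.000235, limma). A dimmer probe set of Hspe1 changed more, by 0.77 in wild type mice (adjusted p = 0.0206) and by 0.97 in hCAR/hPXR mice (adjusted p = 0.00105 over all probe sets, limma). Hspd1, the HSP60 barrel that this lid closes, read 12.92, 12.73 and 12.68 under corn oil and 13.16, 13.22 and 13.26 under DCB in wild type mice, with no overlap. The hCAR/hPXR levels were 13.09, 12.90 and 12.76 against 13.63, 13.62 and 12.60, and the CARko/PXRko levels 12.91, 13.09 and 12.80 against 13.24, 13.28 and 13.01. Both of these overlapped, DCB hCAR/hPXR replicate 3 lying below every control. Hspd1 rose by 0.35 ± 0.116 on average, 1.27-fold, with an adjusted p of 0.0474 (limma). That call was fragile: leaving out any of 14 of the 18 arrays involved ended it, with adjusted p up to 0.098, as did leaving out the arrays with muscle transcripts (0.40, adjusted p = 0.0851, limma).

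Bag3 releases clients from HSP70 and steers them to autophagy. Its levels were 8.72, 8.48 and 8.37 under corn oil and 9.51, 8.99 and 8.49 under DCB in wild type mice, 8.55, 9.12 and 8.53 against 10.36, 9.001 and 9.01 in hCAR/hPXR mice, and 8.80, 9.82 and 8.74 against 9.68, 9.46 and 9.88 in CARko/PXRko mice. The groups overlapped in each genotype, and the high CARko/PXRko control, which was also the highest control for Hspb1, was the array with the most muscle transcripts. Bag3 rose by 0.58 ± 0.176 on average, 1.498-fold (adjusted p = 0.0279, limma). Leaving out any of 7 of the 18 arrays ended the call, with adjusted p up to 0.0732, while without the 4 arrays with muscle transcripts the value was 0.70 (adjusted p = 0.0244, limma). The CARko/PXRko change was 0.55 ± 0.304, and 0.91 ± 0.428 without those arrays (adjusted p = 0.84, limma).

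Hsph1, an HSP110 protein that exchanges nucleotide on HSP70, read 9.35, 9.02 and 9.15 under corn oil and 10.83, 10.08 and 9.48 under DCB in wild type mice. Its average change of 0.72 ± 0.257 did not pass (adjusted p = 0.0636, limma), though in wild type and CARko/PXRko mice all DCB arrays lay above all controls. The hCAR/hPXR levels under DCB of 11.55, 10.23 and 9.04 ran from above to below the controls at 9.12, 10.40 and 9.89.

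The HSP70 core and its J-domain partners gave no call with DCB. Hspa1b, the inducible HSP70, read 9.76, 9.99 and 9.96 under corn oil and 10.98, 10.47 and 9.95 under DCB in wild type mice. The hCAR/hPXR controls were already at 10.48, 12.03 and 11.12, and DCB arrays read 11.48, 10.24 and 11.84. The average change was 0.30, with a 95% interval from -0.26 to 0.869, which holds falls as well as rises. In CARko/PXRko mice the levels were 9.77, 9.61 and 10.33 against 10.12, 11.15 and 9.58. Hspa8, the constitutive HSP70, ran from 12.22 to 13.55 over the DCB arrays and from 12.63 to 13.27 over the corn oil arrays, with an average change of 0.06 (interval -0.22 to 0.342). The average change was 0.27 (interval -0.0084 to 0.548) for Dnajb1, the partner that feeds clients to stress-inducible HSP70, and 0.16 (interval -0.11 to 0.435) for Dnaja1, another cytosolic J-domain protein. Hspa1b shares nearly all of its sequence with Hspa1a, so its values are uncertain as those of 1 gene. The probe set of Hspa1a had a mean of 4.72 over 30 arrays, below the array medians of 5.36 to 5.44, and changed by 1.01 ± 0.492 with DCB in wild type mice (adjusted p = 0.496, limma).

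**Figure D3:**
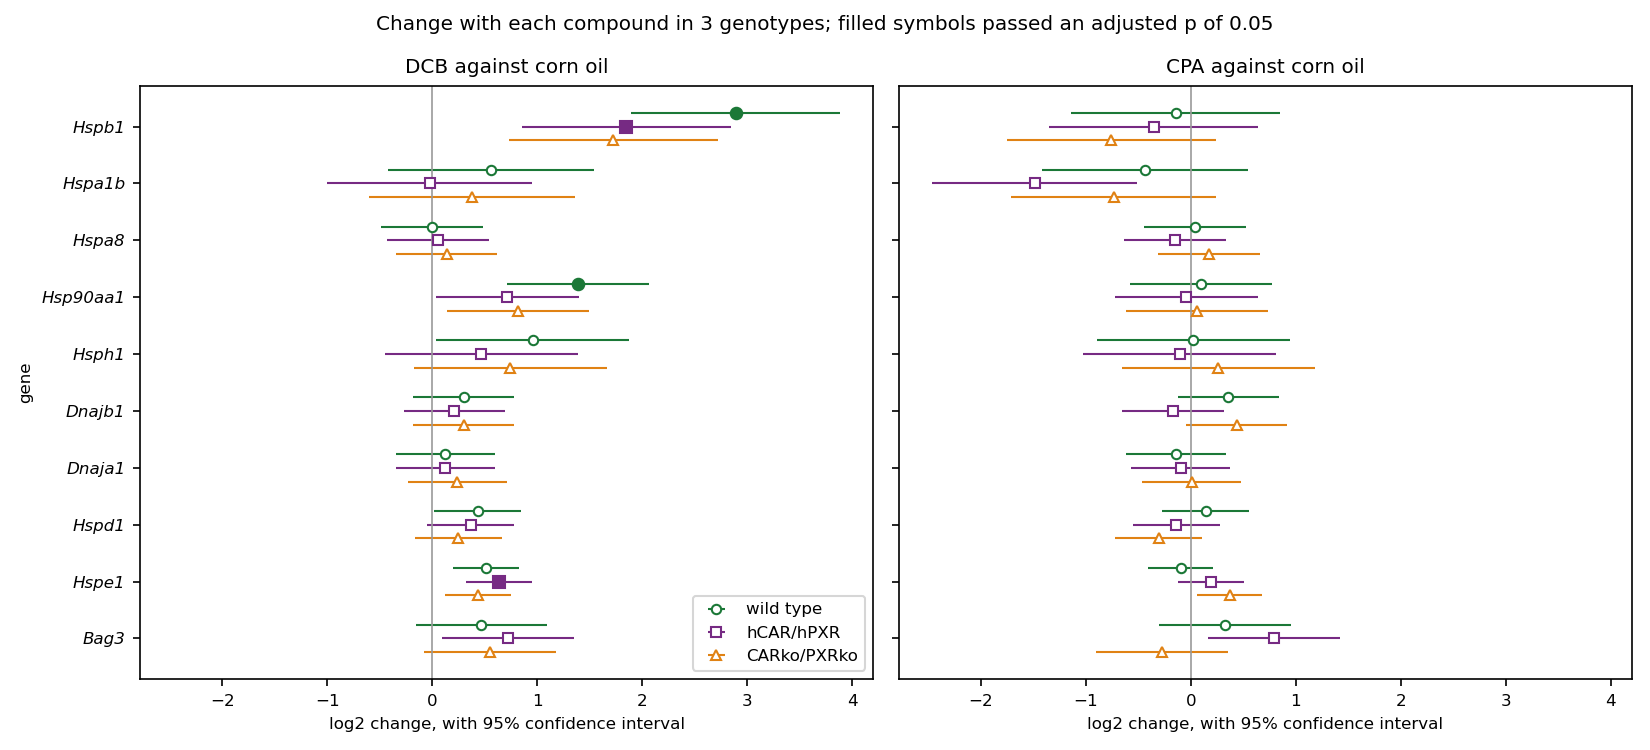
Log2 change of each chaperone gene with DCB (left) and CPA (right) against corn oil in wild type (circles), hCAR/hPXR (squares) and CARko/PXRko (triangles) mice, with 95% confidence intervals from limma; filled symbols passed an adjusted p of 0.05. Hspb1 lies furthest to the right with DCB, from 1.72 to 2.89, and no symbol is filled with CPA.

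By genotype, 2 of 10 members were called higher in wild type mice (Hspb1 and Hsp90aa1), against 0.61% of genes tested, and 5 of 10 had all DCB arrays above all controls, against 10.2%. In hCAR/hPXR mice 2 of 10 were called higher (Hspb1 and Hspe1), against 3.29%, and 2 of 10 were apart, against 10%. In CARko/PXRko mice limma called 0 of 10, against 0.117%. There 3 of 10 had an unadjusted p under 0.05, against 8.1% of genes, and 3 of 10 were apart, against 5.99%. With array weights, which had not fully converged, 3 of 10 were called higher, against 0.766%. These CARko/PXRko counts include the arrays with muscle transcripts, corn oil replicate 2 and DCB replicates 2 and 3. The median changes were 0.491, 0.415 and 0.406 in the order given. None of the differences of a DCB effect from that in wild type mice was called, for 0 of 10 members in either genotype and 0% of genes tested. At an unadjusted p under 0.05 were 0 of 10 members in either, against 3.11% of genes in hCAR/hPXR mice and 2.53% in CARko/PXRko mice. DCB arrays also had lower Kupffer cell and macrophage markers, with a median over 7 markers from -1.01 to -0.183 relative to wild type corn oil and a summed level from 11.52 to 12.29, against 12.13 to 13.22 in the corn oil groups. In the CPA groups, where no member was called, that median ran from -1.23 to -0.363. In bulk liver, fewer cells of a type and less RNA per cell cannot be told apart, and the part of these cells in the chaperone levels was not tested.

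The size of the response differed between arrays of a DCB group more than between arrays of other groups. The pooled within-group SD was larger in the DCB groups than elsewhere for all 10 members, and for 66.1% of genes tested. For Hspb1 it was 1.05 against 0.321 log2 units, for Hsp90aa1 0.637 against 0.295 and for Hspa8 0.502 against 0.139, while for Hspe1 it was 0.187 against 0.178. Because limma used a single spread per gene over all 10 groups, DCB errors and p-values may be too small for members with the larger DCB spread. The same arrays were high or low for most members. DCB WT replicate 1 was the highest of its group for 9 of 10 members and replicate 3 the lowest for 9 of 10. DCB hCAR/hPXR replicate 1 was the highest for 8 of 10, and DCB CARko/PXRko replicate 3, which carried the muscle, adrenal and brown fat transcripts, the lowest for 8 of 10.

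Averaged over the 10 genes as deviations from each gene's mean, DCB WT arrays stood at 0.826, 0.433 and -0.0731 and DCB hCAR/hPXR arrays at 1.14, 0.460 and 0.0498. DCB CARko/PXRko arrays stood at 0.546, 0.608 and 0.160. The corn oil arrays stood between -0.412 and -0.309 in wild type mice, between -0.291 and 0.0408 in CARko/PXRko mice, and at -0.184, 0.268 and 0.0277 in hCAR/hPXR mice. The hCAR/hPXR groups thus overlapped, 1 control lying above DCB hCAR/hPXR replicate 3. Across the 45 pairs of members, the correlation within groups over 30 arrays had a median of 0.395 and ran from -0.467 for Hspa1b with Hspd1 to 0.895 for Hsp90aa1 with Hsph1. For Hspd1 with Hspe1 it was -0.109 within groups and 0.324 over all arrays without removing group means. Arrays share their normalization, and each correlation is a description.

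**Figure D4:**
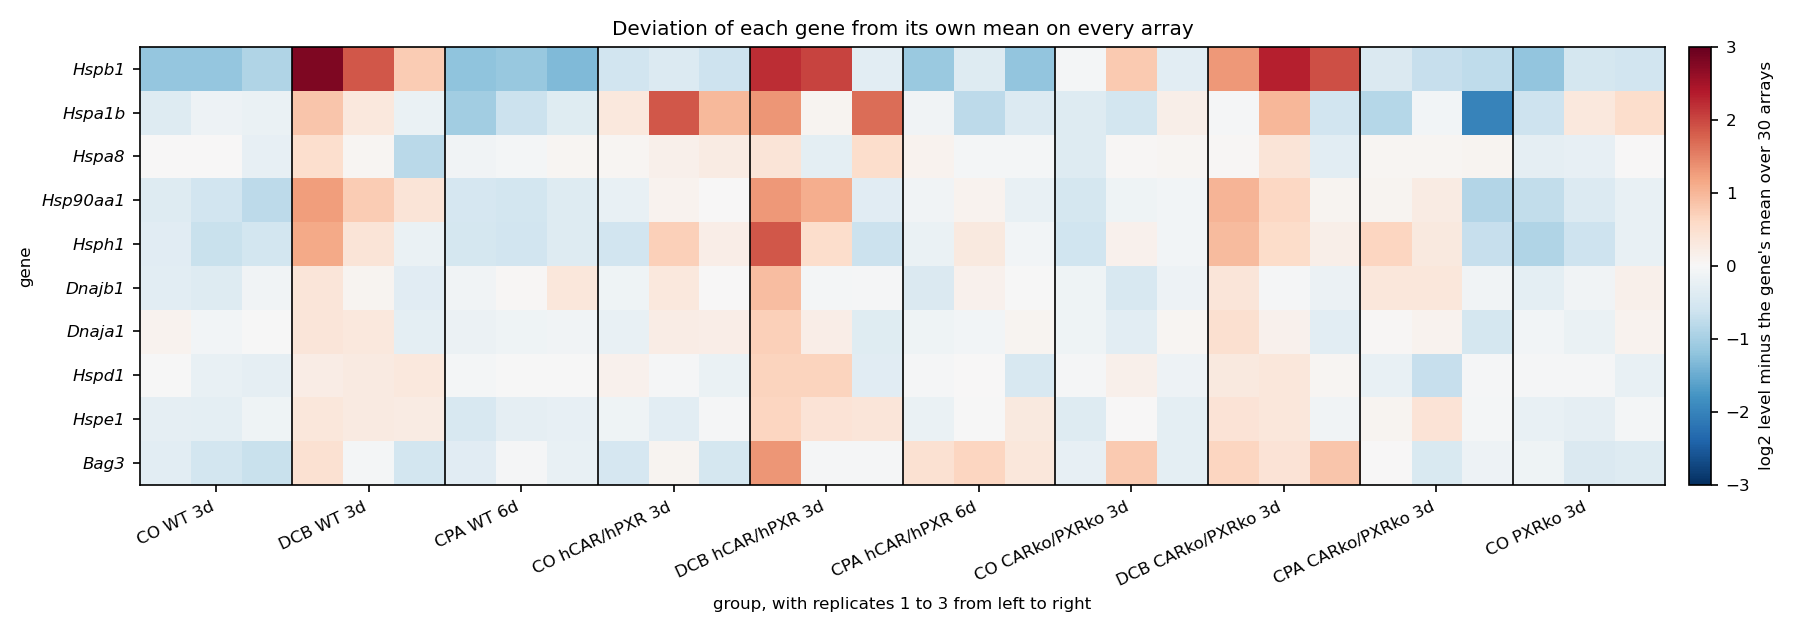
Deviation of each chaperone gene from its own mean over 30 arrays (log2 units, colour) on every array, in columns by group with replicates 1 to 3 from left to right. The reddest columns are DCB arrays, above all replicate 1 of wild type and of hCAR/hPXR mice, and DCB hCAR/hPXR replicate 3 is near the mean of the 10 genes, at 0.0498.

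With CPA, few members moved. Under CPA, limma called 0 of 10 members in wild type mice (1.12% of genes tested called either way), 0 of 10 in hCAR/hPXR mice (4.42%) and 0 of 10 in CARko/PXRko mice (5.49%). An unadjusted p under 0.05 was reached by 0, 2 and 1 members, against 10.3%, 16% and 21.1% of genes tested. Array weights called 1, 1 and 0 members, against 14.1%, 8.96% and 2.27% of genes. With all probe sets fitted separately, a dimmer probe set of Hspe1 was called in CARko/PXRko mice, at 0.58 (adjusted p = 0.0497, limma). The median changes were 0.0279, -0.124 and 0.0319. Hspb1 levels were 9.16, 9.24 and 9.06 in wild type mice given CPA, within or below the range of the controls. The CARko/PXRko levels of 9.94, 9.69 and 9.62 all lay below their controls, a change of -0.76 ± 0.482 (adjusted p = 0.377), and of -0.44 without the arrays with muscle transcripts (adjusted p = 0.702, limma).

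Averaged over the genotypes, 1 of 10 members fell with CPA, against 8.64% of genes tested, and 0 of 10 rose, against 5.35%. These counts lay near the shares over all genes. The member that fell was Hspa1b, by 0.89 ± 0.273 on the log2 scale (adjusted p = 0.0301, limma). That call was lost on leaving out any of 6 of the 18 arrays, with adjusted p up to 0.0776. Without the arrays with muscle transcripts the change was -0.94 (adjusted p = 0.0241, limma). Its levels under CPA were 9.11, 9.51 and 9.78 in wild type mice, 10.05, 9.37 and 9.74 in hCAR/hPXR mice and 9.29, 10.06 and 8.16 in CARko/PXRko mice. In hCAR/hPXR mice all 3 lay below the controls and the change was -1.49 ± 0.473 (adjusted p = 0.0783, limma). Those controls were the highest corn oil group for Hspa1b, 1.304 above wild type (adjusted p = 1, limma). Bag3 lay above its controls in hCAR/hPXR mice given CPA, at 9.504, 9.68 and 9.38, a change of 0.79 ± 0.304 (adjusted p = 0.169, limma). Hspe1 in CARko/PXRko mice changed by 0.37 ± 0.152 (adjusted p = 0.163), and by 0.48 ± 0.153 without the arrays with muscle transcripts (adjusted p = 0.0801, limma).

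The treated groups were compared directly, without the shared controls. With CPA set against DCB, 3 of 10 members were lower in wild type mice (1.26% of genes tested called lower), namely Hspb1 (-3.03 ± 0.482, adjusted p = 0.00119), Hsp90aa1 (-1.29 ± 0.329, adjusted p = 0.0381) and Hspe1 (-0.61 ± 0.152, adjusted p = 0.0318, limma). Leaving out single arrays ended the Hsp90aa1 call in 5 of 6 cases, with adjusted p up to 0.258, and the Hspe1 call in 6 of 6, up to 0.152 (limma). In hCAR/hPXR mice 1 of 10 was lower (4.06%), Hspb1 at -2.20 ± 0.482 (adjusted p = 0.00552, limma). In CARko/PXRko mice 1 of 10 was lower (4.32%), again Hspb1, at -2.48 ± 0.482 (adjusted p = 0.00373), and without the arrays with muscle transcripts it stood at -1.92 (adjusted p = 0.179, limma). In CARko/PXRko mice the labelled durations match. No difference of a CPA effect from that in wild type mice was called, for 0 of 10 members in hCAR/hPXR mice (0.0625% of genes) and 0 of 10 in CARko/PXRko mice (0.0703%). At an unadjusted p under 0.05 were 0 and 1 members, against 4.91% and 7.56% of genes tested.

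Under corn oil the genotypes gave no call. Limma called 0 of 10 members for hCAR/hPXR against wild type (0.0234% of genes tested), 0 of 10 for CARko/PXRko against wild type (0.0391%), 0 of 10 for PXRko against wild type (0.0234%) and 0 of 10 for CARko/PXRko against PXRko (0.0156%). An unadjusted p under 0.05 was reached by 1, 1, 0 and 0 members, against 1.45%, 3.31%, 1.72% and 2.76% of genes, and array weights called 1 in the second of these comparisons, against 1.6% of genes. In the same order, 10, 8, 7 and 6 of the 10 estimates were above 0, against 49.2%, 47.2%, 51% and 46.9% of genes. Their medians were 0.278, 0.0847, 0.0958 and 0.0723 log2 units. Hspb1 was 1.21 ± 0.482 higher in CARko/PXRko than in wild type controls (adjusted p = 1, limma), and 0.89 without the arrays with muscle transcripts. In order of mean level over the 10 groups, the 3 DCB groups led for Hspb1, at 12.2 ± 0.523, 12.2 ± 1.03 and 11.7 ± 1.41 (SD, n = 3), followed by CARko/PXRko corn oil at 10.5 ± 0.573. Neighbours in that order overlapped except CARko/PXRko and hCAR/hPXR corn oil, at 9.84 ± 0.107. Over all 10 groups, the moderated F-test of limma passed for Hspb1 (adjusted p = 5.22e-05), Hspe1 (0.00377), Hsp90aa1 (0.0125) and Hspa1b (0.0271), where 15.6% of genes tested passed.

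The wider folding machinery was described by 99 other chaperone genes on 8 lists, of which 92 were tested. The lists too were chosen with earlier results of these data known, so their counts are descriptions. With DCB, averaged over genotypes, 19 of 92 rose and 2 fell, with a median of 0.159 log2 units against -0.0115 for all genes. Without the arrays with muscle transcripts 17 rose and 0 fell, where 5.45% of all genes were called higher. TRiC, the cytosolic chaperonin that folds actin and tubulin, with its helper prefoldin gave the highest share of calls among the 8 lists: 8 of 13 rose and all 13 estimates were above 0. Cct7 rose by 0.65 ± 0.0705 (adjusted p = 1.4e-06), Cct3 by 0.77 ± 0.0952 (adjusted p = 9.36e-06), Tcp1 by 0.42 ± 0.0742 (adjusted p = 0.000496) and Cct5 by 0.38 ± 0.0665 (adjusted p = 0.000496, limma). For Cct7 the CARko/PXRko arrays read 10.69, 10.78 and 10.46 under corn oil and 11.08, 11.09 and 11.003 under DCB, with no overlap.

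Among 14 HSP90 family members and cochaperones, 4 rose and 1 fell. Ahsa1, which speeds the ATPase of HSP90, rose by 0.67 ± 0.1 (adjusted p = 8.79e-05), Fkbp5, a cochaperone of steroid receptors, by 0.59 ± 0.169 (adjusted p = 0.0204), Stip1, which bridges HSP70 and HSP90, by 0.53 ± 0.166 (adjusted p = 0.0354) and Tomm70a, a receptor for mitochondrial import, by 0.31 ± 0.0986 (adjusted p = 0.0362, limma). Trap1, the mitochondrial HSP90, fell by 0.24 ± 0.0752 (adjusted p = 0.0384, limma), a call lost without the arrays with muscle transcripts, where 5 of 14 rose and 0 fell.

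These list counts stand against 6.54% of all genes higher and 6.89% lower. Of 15 HSP70 relatives and exchange factors, 3 rose, Hspa4l by 0.75 ± 0.161, Grpel1 by 0.32 ± 0.0855 and Hspbp1 by 0.27 ± 0.0782. Of 19 J-domain proteins, 2 rose, Dnajb12 by 0.42 ± 0.104 and Dnajc2 by 0.33 ± 0.0857, a share near that of all genes, and 1 was called without the arrays with muscle transcripts. Of 8 further small heat shock proteins, 1 rose, Hspb8, a partner of Bag3, by 0.52 ± 0.129 (adjusted p = 0.00809, limma). On the list of the mitochondrial unfolded protein response, 2 of 13 rose, Clpp and Grpel1, and 2 fell, Clpb and Trap1; without those arrays 1 rose and 0 fell. Limma called 0 of 15 chaperones of the endoplasmic reticulum, of which 5 had an unadjusted p under 0.05, and 0 of 3 heat shock factors and regulators, with 0 at that level. Of all genes tested 26.6% reached that level, so 5 of 15 in the average lay near the share over all genes. In wild type mice alone 5 of 15 reached it, against 10.1% of genes, and all 15 estimates were above 0 (median 0.526). In hCAR/hPXR and CARko/PXRko mice 0 of 15 did, against 23% and 8.1%, with medians of 0.0942 and 0.028. The differences from the wild type change had medians of -0.462 and -0.693, with 0 of 15 called in either. Some genes sit on more than 1 list.

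**Figure D5:**
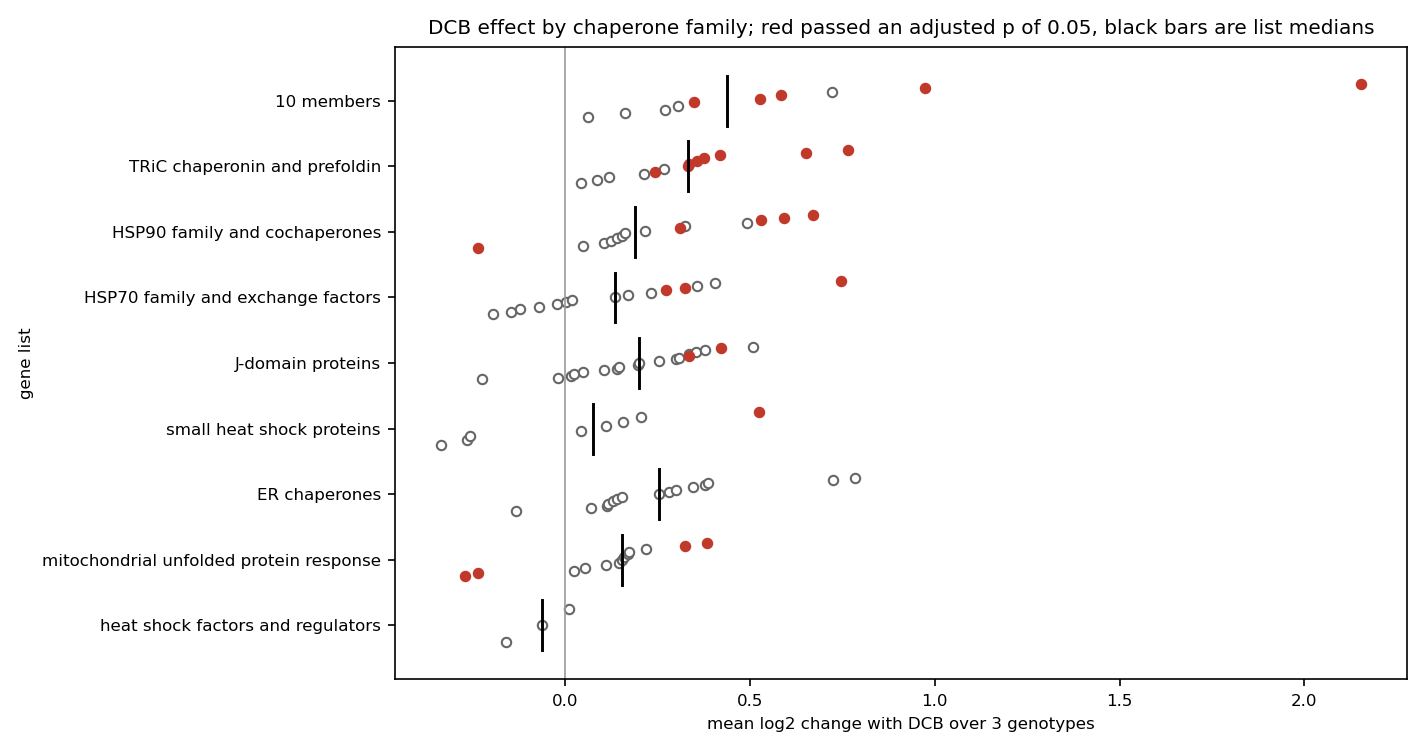
Mean log2 change with DCB over 3 genotypes for each gene (points) of the 10 members and of 8 further chaperone lists, with list medians as black bars; red points passed an adjusted p of 0.05. Members have a median of 0.437 and TRiC with prefoldin 0.331, and Hspb1 is the point furthest to the right, at 2.15.

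In single genotypes, DCB raised 3 of 92 of these genes in wild type mice (Ahsa1, Cct3 and Cct7, against 0.61% of all genes) and 9 of 92 in hCAR/hPXR mice, 5 of them TRiC subunits (against 3.29%). Limma called 0 of 92 in CARko/PXRko mice (against 0.117%), where 12 had an unadjusted p under 0.05, against 8.1% of genes tested. With CPA, 3 of 92 were called in wild type mice (1.12% of all genes), 3 of 92 in hCAR/hPXR mice (4.42%) and 5 of 92 in CARko/PXRko mice (5.49%), so the last 2 counts lay near or below the share over all genes. Fkbp5 changed most. Its levels were 9.14, 8.96 and 9.37 in wild type controls and 11.76, 10.58 and 11.24 under CPA, with a rise of 2.04 ± 0.292 (adjusted p = 0.000412, limma). The rise was 3.12 ± 0.292 with the human receptors (adjusted p = 5.05e-07) and 3.13 ± 0.292 with neither receptor (adjusted p = 3.88e-07, limma). Clpx, a mitochondrial unfoldase, rose in wild type mice by 0.98 ± 0.238 (adjusted p = 0.0394), and Dnajc12, a J-domain protein, fell in hCAR/hPXR mice by 1.25 ± 0.287 (adjusted p = 0.011, limma). Hspb6, a small heat shock protein abundant in muscle, fell by 2.46 ± 0.586 in mice lacking both receptors (adjusted p = 0.015) and by 1.48 ± 0.299 without the arrays with muscle transcripts (adjusted p = 0.0062, limma).

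The genes whose levels ran most like the mean of the 10 members over 30 arrays were Plpp5 (Pearson r 0.879), Ahsa1 (0.878), Stip1 (0.87), Hnrnpc (0.868) and Arcn1 (0.861), of which Ahsa1 and Stip1 are HSP90 cochaperones. For Hspb1 alone they were Smyd5 (0.909), Slc3a2 (0.904), Lmna (0.89), Cct7 (0.887) and Afp (0.879). These were picked from all genes tested by their likeness, and within groups r was 0.467 for Afp and 0.814 for Cct7.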

How the data were processed

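Per the submitters' processing notes, the authors made the values with RMA, which corrects background, normalizes between arrays and summarizes probes, with no version stated. The deposited values are log2 probe set summaries, and array medians ran from 5.36 to 5.44. Of 45037 probe sets, 34945 were annotated to a single gene. A gene was represented by its brightest such probe set and tested where this exceeded the array median on at least 3 arrays. Using limma 3.58.1 (R 4.3.3), group means were fitted to 30 arrays and variances moderated, with 20 residual degrees of freedom, and 17 comparisons were each adjusted by Benjamini-Hochberg over 12795 genes and called at 0.05. The number of arrays limits the precision. The members and lists were chosen with earlier results of these data known, and the averages over genotypes were added after seeing the data. The other chaperone genes named came from, in each list and treatment effect, up to 4 called genes with the smallest p, of which not all are named. A gene outside that rule was chosen after its values were seen. The genes most like the members were the 5 with the highest Pearson r. The procedure was tested on simulated data. Gene positions and promoter windows are from RefSeq, GRCm38.p6, and the build of the array annotation is not given in the sources used here. Alternatives changed the filter on dim genes (none, or the 75th percentile), the scaling (a further quantile step, or centring on array medians), the probe sets (averaged, or all separate), the model (array weights, the groups compared alone, the replicate block) and the arrays left out.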

Additional observations from a re-analysis of the deposited data

Results flagged for a closer look

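Transcripts of tissues other than liver appeared on 4 arrays, above the level in the wild type corn oil arrays. Relative to that level, the median skeletal muscle marker stood 6.27 log2 units higher on CO CARko/PXRko replicate 2, 1.14 on CO PXRko replicate 3, 1.93 on DCB CARko/PXRko replicate 2 and 5.97 on DCB CARko/PXRko replicate 3. Squamous epithelium markers stood at 3.73 on DCB CARko/PXRko replicate 2. Adrenal cortex markers stood at 6.62 and brown fat markers at 8.18 on DCB CARko/PXRko replicate 3. Leaving out these arrays gave an average DCB change of 2.08 for Hspb1, 1.14 for Hsp90aa1, 0.70 for Bag3, 0.63 for Hspe1 and 0.40 for Hspd1. The call of Hspd1 was lost, while those of the other members named held.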

How the results depend on the processing

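Of 580 values of single genes under alternatives other than leaving out 1 array, 537 kept their direction and their side of the threshold, 14 lost a call, 25 gained a call and 4 changed sign. The 58 results behind them took in every DCB effect within a genotype and every other member result with an unadjusted p under 0.05. Many of the 537 are thus uncalled results that stayed uncalled, and their number does not measure how stable the calls are. The sign changes were of changes with DCB near 0: Hspa8 in wild type mice (0.00060) and Hspa1b in hCAR/hPXR mice (0.12) with probe sets averaged, and Hspa8 (-0.32) and Dnajb1 (-0.058) in hCAR/hPXR mice with array weights. The number of members called with DCB in wild type mice was 1 with no filter on dim genes, 1 with arrays centred on their median and 5 with array weights. In hCAR/hPXR mice it was 4 with array weights and 0 with only the groups compared, and in CARko/PXRko mice 3 with array weights. With CPA, array weights called 1 in wild type and 1 in hCAR/hPXR mice, and 1 for corn oil CARko/PXRko against wild type, and all probe sets fitted separately called 1 in CARko/PXRko mice. For CPA against DCB in hCAR/hPXR mice the count was 2 with the filter at the 75th percentile, 2 with quantile normalization again, 4 with the mean of probe sets, 4 with array weights, 0 with only the groups compared, 3 without the arrays with muscle transcripts and 4 with all probe sets. With array weights 9.69% of all genes were lower in that comparison. In CARko/PXRko mice the count for CPA against DCB was 0 with array weights, 0 with only the groups compared and 0 without the arrays with muscle transcripts. With only the groups compared, the average over genotypes called 3 members with DCB and 2 with CPA; that fit drops other arrays, while the cause of the other shifts was not tested. The weights had not fully converged, and with them the average DCB effect called 3381 of all genes in place of 1719. Over all alternatives the DCB effect called 83 to 969 of all genes in wild type, 82 to 2993 in hCAR/hPXR and 0 to 168 in CARko/PXRko mice. The averages called 1381 to 3381 of all genes with DCB and 1466 to 2414 with CPA. CPA against DCB called 227 to 1614 in wild type, 65 to 2716 in hCAR/hPXR and 7 to 1031 in CARko/PXRko mice. Where no other setting is named, the shares set beside the members' counts thus hold for the settings of the report.

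Leaving out each array in turn, the count of members called ran from 1 to 2 for DCB in wild type mice, 0 to 4 in hCAR/hPXR mice and 3 to 6 for the DCB average, from 0 to 1 for the CPA average, and for CPA against DCB from 1 to 2 in wild type, 1 to 3 in hCAR/hPXR and 1 to 2 in CARko/PXRko mice; it stayed at 0 elsewhere. The 4 came without DCB hCAR/hPXR replicate 3, where Hsp90aa1 stood at 1.23 (adjusted p = 0.0147, limma). Of all genes, DCB then called 37 to 115 in wild type mice, 337 to 1056 in hCAR/hPXR mice and 1344 to 1887 in the average. The CPA average called 1481 to 2064. CPA against DCB called 81 to 229 in wild type, 640 to 1598 in hCAR/hPXR and 439 to 1370 in CARko/PXRko mice. DCB changes of single members that changed sign ran from -0.30 to 0.364 (wild type), -0.11 to 0.298 (hCAR/hPXR) and -0.034 to 0.31 (CARko/PXRko) for Hspa8, -0.39 to 0.449 (hCAR/hPXR) and -0.054 to 0.73 (CARko/PXRko) for Hspa1b, and in hCAR/hPXR mice from -0.15 to 0.397 for Dnaja1, -0.17 to 1.08 for Hsph1 and -0.12 to 0.383 for Dnajb1.

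The numbers were not taken to pair samples: over all genes, 42 of 135 same-numbered pairs had a correlation above 0.1, with a median of 0.0117 and a highest value of 0.571, against a median of 0.00808 for other pairs. As a hint from the data, 16 of 30 arrays matched best an array of their own number, and replicate 3 of each DCB group was the lowest for 9, 6 and 8 of 10 members. With the replicate block, 2 members were called with DCB in wild type and 2 in hCAR/hPXR mice, and 5 in the DCB average, the same counts as without it.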
